A study of Homo sapiens with 6 samples.

Results

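The hexosamine pathway enzymes were described in CAL-27 cells with and without knockdown of XBP-1s. The group held 8 genes, chosen by name: GFPT1, GFPT2, GNPNAT1, PGM3 and UAP1, which build UDP-GlcNAc, NAGK, which salvages free GlcNAc, and OGT and OGA, which add and remove O-GlcNAc on proteins. They were found on the array through the RefSeq accession of each probe, which gave 9 of 34127 probes, with GFPT1 on 2 probes and each of the other 7 genes on 1. CAL-27 is an established human cell line derived from a tongue squamous carcinoma. Knockdown cells (shXBP-1s, n = 3), in which a short hairpin RNA targets XBP-1s, were set against negative control cells (shCtrl, n = 3). There was 1 array for each sample, and the comparison asked which transcripts differ when XBP-1s is depleted. The paper's methods state that the hairpin was introduced by stable transduction. The labels give no time point or other treatment, and they do not say whether the cells were a pool or a clone or whether the 3 samples of a group were separate cultures. P-values therefore measure the spread between these samples, which may be technical.

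The hexosamine pathway branches from glycolysis. GFPT1 and GFPT2 transfer an amide nitrogen from glutamine to fructose phosphate, the step that sets the flux, and GNPNAT1, PGM3 and UAP1 then acetylate the sugar, move its phosphate and join it to UDP. The product, UDP-GlcNAc, is the donor for N-glycans, hyaluronan, glycolipid anchors and the single O-linked GlcNAc that OGT places on nuclear and cytosolic proteins. XBP-1s, the spliced form of the transcription factor XBP1, is made when IRE1 cuts its mRNA under endoplasmic reticulum stress, and genes of this pathway, GFPT1 among them, are known targets of it in other tissues.

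Letters bound by XBP1 and related factors were looked for in the RefSeq promoter windows of GRCh38.p14, which run from 250 bases before to 50 bases after a transcript start, on both strands. All 8 genes had a window, 12 windows in all. The letters GCCACGT, a core with its flank that such factors bind, were found in the windows of 3 of the 8 genes, GFPT1, GNPNAT1 and PGM3, against 3.22% of all 35116 windows and 3.95% of all genes with a window. The UPR element TGACGTGG, held by 0.729% of all windows, was in none of the 8, and neither was the ER stress element, CCAAT and CCACG set 9 bases apart, held by 0.0769% of all windows. The 30-base stretches that hold the matches are shown as the places in these windows where the letters occur. Other parts of the genes and other letters were not searched. They are read along the gene, and capitals mark the matched letters.
GFPT1, chr2:69387390-69387419, minus strand: cacgagccactGCCACGTcgccgccgccag
GNPNAT1, chr14:52791563-52791592, minus strand: gcgttggcgctGCCACGTctgggccgcggt
PGM3, chr6:83193256-83193285, minus strand: agccacgcaggGCCACGTctgcggttctga
Counted from the transcript start, the match lay at -181 to -175 in GFPT1, at 27 to 33 in GNPNAT1 and at -9 to -3 in PGM3. A match is a description of the letters and not evidence of binding, and no match says only that these letters are not in this window. The window of XBP1 itself held the ER stress element, shown for comparison with its CCAAT and CCACG in capitals.
XBP1, chr22:28800597-28800626, minus strand: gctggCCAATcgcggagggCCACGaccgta

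Values below are log2 signals relative to the 75th percentile of the same array, and a difference is the shXBP-1s mean minus the shCtrl mean. XBP1 was lower in all 3 shXBP-1s samples. Its values were 1.88, 1.85 and 1.87 in shCtrl and -0.50, -0.54 and -0.52 in shXBP-1s, so the groups did not overlap. The difference was -2.39 (SE 0.04, 95% interval -2.48 to -2.29), which left 19.1% of the control level (adjusted p = 2.81e-07). Adjusted p-values are from limma with Benjamini-Hochberg adjustment over all 27624 probes tested. The probe is annotated to the XBP1 transcript, and whether it tells the spliced from the unspliced form was not tested.

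All 9 probes of the pathway were well above background on all 6 arrays, so all 8 genes were tested. At an adjusted p below 0.05, 5 of the 9 probes were lower in shXBP-1s (GFPT1 probe A_23_P345887, GNPNAT1, UAP1, OGT and OGA), and 1 was higher (NAGK). Of all tested probes 23.3% were lower and 18.4% were higher, so a large share of the transcriptome passed this test. The other 3 probes, GFPT1 probe A_33_P3243153, GFPT2 and PGM3, did not pass. Not 1 of the 9 reached a 2-fold difference with an adjusted p below 0.05, against 4.9% of all tested probes, and with the methods' t-test in place of limma the number was also 0. The groups did not overlap for 7 of the 9, against 52.4% of all tested probes. The median difference of the 9 probes was -0.19, beside -0.02 over all tested probes. The smallest exact permutation p that 3 samples against 3 can give is 0.1, and it was reached by 7 of the 9 probes, with 0.9 for GFPT2 and 0.8 for PGM3.

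**Figure D1:**
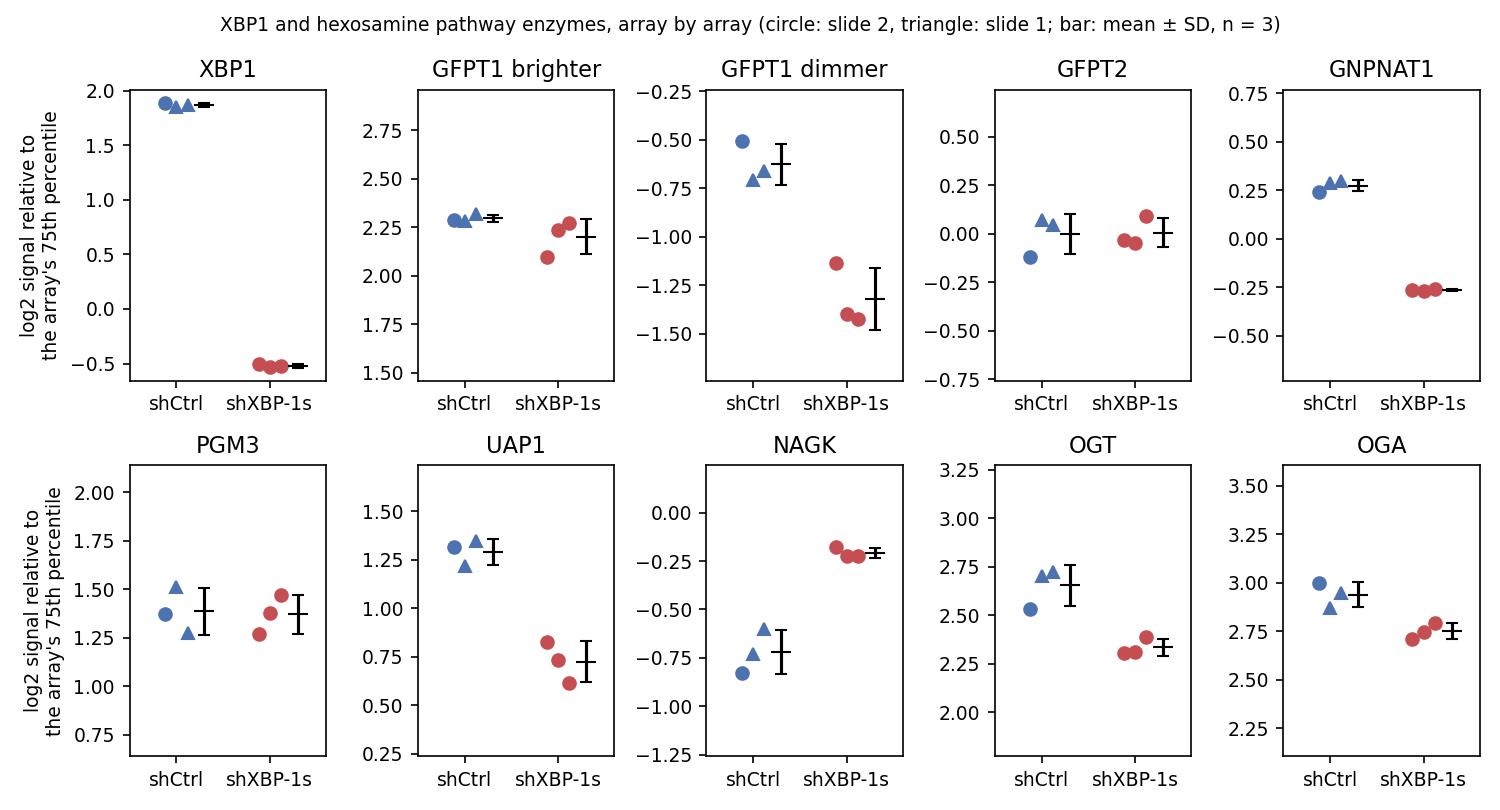
Log2 signal, scaled to each array's 75th percentile, for the 9 probes of the 8 hexosamine pathway genes and for XBP1, with a point for each array (triangles, slide 1, circles, slide 2) and the mean ± SD (n = 3) drawn beside each group. Slides were inferred from the scan identifier of each array. The vertical axis does not start at 0 and its range is the panel's own. XBP1 fell by 2.39 on this scale, NAGK was the only pathway gene whose shXBP-1s samples all lay above the controls, and the points of GFPT2 and PGM3 overlapped.

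GFPT1, the rate-limiting glutamine:fructose-6-phosphate amidotransferase, was read by 2 probes that gave different answers, labelled dimmer (A_23_P345887) and brighter (A_33_P3243153) in the plots. On probe A_23_P345887 the values were -0.51, -0.71 and -0.66 in shCtrl and -1.14, -1.40 and -1.43 in shXBP-1s. All 3 shXBP-1s samples lay below the controls, with a difference of -0.69 (SE 0.09, 95% interval -0.90 to -0.48, adjusted p = 5.25e-04) or 61.8% of the control level. On probe A_33_P3243153 the values were 2.29, 2.28 and 2.32 in shCtrl and 2.10, 2.24 and 2.27 in shXBP-1s, a difference of -0.09 (95% interval -0.22 to 0.03, adjusted p = 0.214). The groups did not overlap here either, but replicate 3 of shXBP-1s lay just under the lowest control. Within each array, the first probe over the second gave a log2 ratio of -2.92 ± 0.11 in the control samples and -3.52 ± 0.25 in the knockdown samples (mean ± SD, n = 3 each). The probes thus changed unequally by -0.60 (exact permutation p = 0.1, the smallest possible). Adjustment over 3 ratios gave 0.15, but 1 of the 3, NAGK over GNPNAT1, was chosen for its outcome. Averaged over both probes the difference was -0.39 (adjusted p = 1.90e-04). Where in the gene each probe binds, and the part of their unequal brightness, were not tested.

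GFPT2, the other amidotransferase, did not pass. Its values were -0.12, 0.07 and 0.04 in shCtrl and -0.03, -0.04 and 0.09 in shXBP-1s, and the groups overlapped. The difference was 0.01 (95% interval -0.15 to 0.16, adjusted p = 0.949), an interval that holds no change larger than 0.16 in either direction on the log2 scale.

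GNPNAT1, which acetylates glucosamine phosphate, had the smallest p of the 9 probes. Its values were 0.24, 0.28 and 0.29 in shCtrl and -0.27, -0.27 and -0.26 in shXBP-1s. The shXBP-1s samples sat close together and well apart from the controls, with a difference of -0.54 (SE 0.04, 95% interval -0.64 to -0.44, adjusted p = 3.79e-05), or 68.9% of the control level. PGM3, the next enzyme, which moves the phosphate, had values of 1.37, 1.51 and 1.28 in shCtrl and 1.27, 1.38 and 1.47 in shXBP-1s. These overlapped, and the difference was -0.01 (95% interval -0.19 to 0.16, adjusted p = 0.895). UAP1, the last step, which joins the sugar to UDP, had values of 1.32, 1.22 and 1.35 in shCtrl and 0.83, 0.73 and 0.62 in shXBP-1s, all below the controls. The UAP1 difference was -0.57 (SE 0.07, 95% interval -0.72 to -0.42, adjusted p = 2.59e-04), or 67.5% of the control level. Thus 2 of the 3 enzymes after GFPT, GNPNAT1 and UAP1, were lower, and the one between them was not shown to differ.

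The normexp background correction moved the median of all tested probes to -0.42, and relative to that median GNPNAT1 stood at -0.05, UAP1 at -0.01 and GFPT1 probe A_23_P345887 at -0.27. With quantile normalization after the same correction, the differences were -0.47 for GNPNAT1, -0.46 for UAP1 and -0.57 for that GFPT1 probe, with the median of all probes near 0.

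NAGK, the kinase that returns free GlcNAc to the pathway, was the member that rose. Its values were -0.83, -0.73 and -0.60 in shCtrl and -0.18, -0.22 and -0.22 in shXBP-1s. Every shXBP-1s sample was above every control, and the difference was 0.51 (SE 0.06, 95% interval 0.36 to 0.66, adjusted p = 4.15e-04), or 142% of the control level. Set against GNPNAT1 on the same array, the log2 ratio of NAGK was -1.07, -1.01 and -0.90 in shCtrl and 0.09, 0.05 and 0.03 in shXBP-1s, a shift of 1.05. The pair is the member that rose and the lower member with the smallest p, so this restates their differences. Its exact permutation p of 0.1, the smallest possible, followed from that choice and is not read as a test. Relative to the median of all probes, NAGK stood at 0.91 under normexp.

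OGT, the O-GlcNAc transferase, had values of 2.53, 2.70 and 2.72 in shCtrl and 2.30, 2.31 and 2.39 in shXBP-1s, with no overlap. Its difference was -0.32 (SE 0.06, 95% interval -0.46 to -0.18, adjusted p = 0.00381), or 80.1% of the control level. OGA, the enzyme that removes the sugar, had values of 2.998, 2.87 and 2.94 in shCtrl and 2.71, 2.75 and 2.79 in shXBP-1s. The OGA groups did not overlap and differed by -0.19 (SE 0.05, 95% interval -0.30 to -0.07, adjusted p = 0.0185), or 87.8% of the control level. Both were small changes: 37.2% of all tested probes moved by more than OGT and 56.7% by more than OGA. The ratio of OGT to OGA on the same array was -0.47, -0.17 and -0.22 in shCtrl and -0.41, -0.44 and -0.41 in shXBP-1s, which overlapped (difference -0.13, exact permutation p = 0.4). The OGT and OGA calls depended on the processing. Under normexp both fell to -0.07 (adjusted p = 0.530 and 0.567), and both stood at 0.35 relative to the median of all probes. OGA also missed the threshold with the deposited log2 values (-0.12, adjusted p = 0.0634), after normexp with quantile normalization (-0.16, adjusted p = 0.0689), and without shCtrl replicate 3 (adjusted p = 0.0622), shXBP-1s replicate 1 (0.0523) or shXBP-1s replicate 2 (0.0764). With the slide as a block, OGT differed by -0.20 (adjusted p = 0.0499).

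**Figure D2:**
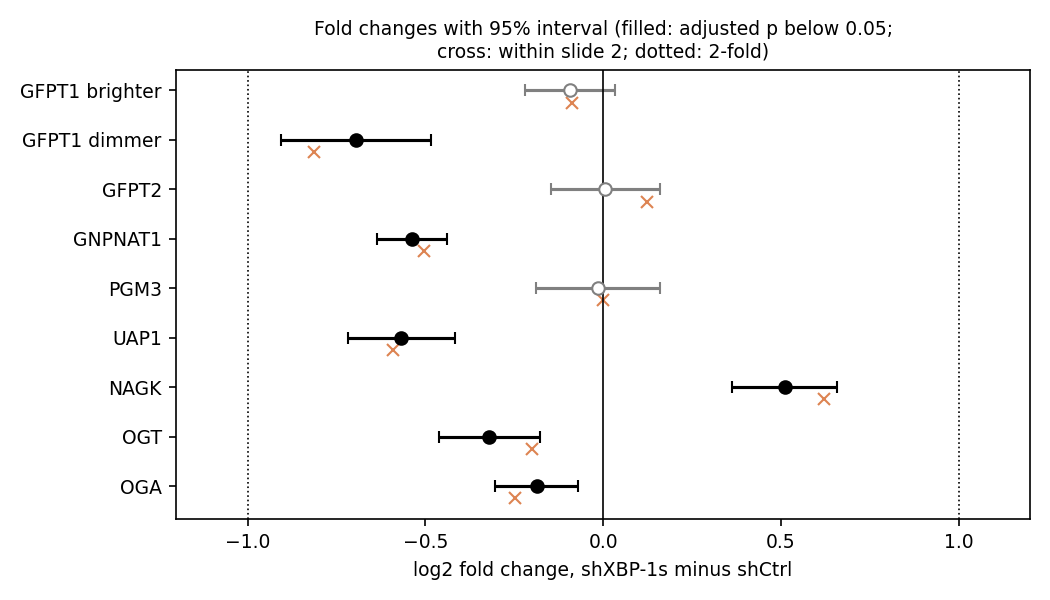
Difference in log2 signal, shXBP-1s minus shCtrl, for each of the 9 hexosamine pathway probes, with 95% intervals from limma (n = 3 and 3), filled where the adjusted p was below 0.05. Crosses give the difference from shCtrl replicate 1 on slide 2 and dotted lines a 2-fold difference. The intervals of GFPT1 probe A_33_P3243153, GFPT2 and PGM3 span 0, and NAGK is the only probe whose interval lies above it, at 0.51.

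The labels name no slide, and arrays that share a scan identifier in the headers were taken to be on 1 slide. The 2 slides so read held the groups unequally: shCtrl replicates 2 and 3 were on slide 1, and shCtrl replicate 1 and all 3 shXBP-1s samples were on slide 2. Within slide 2 the difference from shCtrl replicate 1 was -0.81 for GFPT1 probe A_23_P345887, -0.50 for GNPNAT1, -0.59 for UAP1, 0.62 for NAGK and -0.25 for OGA, each in the direction of the whole comparison. The 75th percentile of the signal was 687.4 to 761.3 on the shCtrl arrays and 792.0 to 983.4 on the shXBP-1s arrays, and arrays of a group correlated at 0.993 to 0.9977 against 0.981 to 0.9862 between groups.

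**Figure D3:**
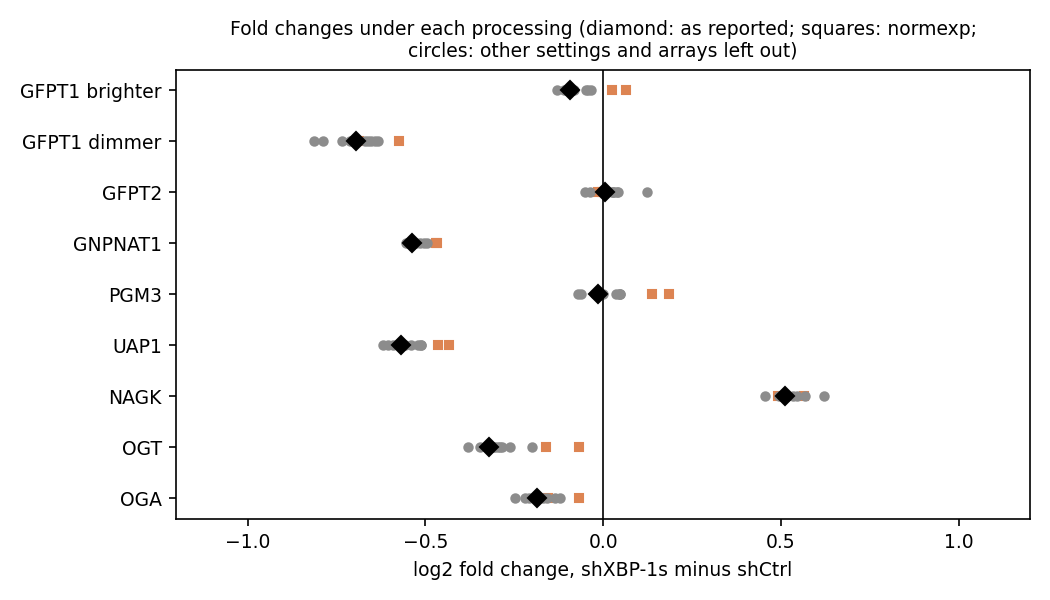
Difference in log2 signal of each hexosamine pathway probe as reported (diamonds), under normexp with and without quantile normalization (squares) and under the other settings, arrays left out included (circles). GFPT1 probe A_23_P345887, GNPNAT1, UAP1, NAGK, OGT and OGA kept their side of 0 in all settings drawn, while GFPT1 probe A_33_P3243153, GFPT2 and PGM3 crossed it.

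The 5 genes whose values over the 6 arrays were nearest to those of GNPNAT1, centred on the control mean, among 16813 genes were ZNF833P, PCNA, GMNN, SLC43A2 and DCAF16. PCNA, the sliding clamp of DNA replication, and GMNN, the inhibitor of replication licensing, differed by -0.53 and -0.56. ZNF833P differed by -0.53, SLC43A2 by -0.55 and DCAF16 by -0.52, with distances of 0.0426 to 0.0467 across all 5. These were chosen for their likeness and carry no test.

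Around the pathway, 47 further genes of sugar supply, interconversion and UDP-GlcNAc use were listed, 46 of them on the array and 45 tested. Of the 45, 11 were lower (24.4%), 14 higher (31.1%) and 20 did not pass, beside 27.5% lower and 18.9% higher of all 16821 tested genes. The median difference was 0.12 in the list and -0.04 over all genes. PFKM and SLC35B4 were lower by 2-fold or more. SLC35D1, a nucleotide sugar transporter, was named after its value was seen and rose by 1.06 (SE 0.21, adjusted p = 0.00445). Its signal was low, at -4.33 ± 0.46 in shCtrl and -3.27 ± 0.11 in shXBP-1s (mean ± SD), so the controls were widely spread.

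Among the 9 genes that supply hexose phosphate and glutamine, 2 were lower, 4 higher and 3 did not pass. PFKM, the muscle phosphofructokinase that draws fructose phosphate into glycolysis, fell from 2.48 to 1.38 (difference -1.10, adjusted p = 1.67e-06). The other phosphofructokinases did not pass. PFKP, the brightest of them, was at 2.98 in shCtrl and 2.97 in shXBP-1s (difference -0.006, adjusted p = 0.931). PFKL differed by 0.23 (adjusted p = 0.104). GPI, which makes fructose phosphate from glucose phosphate, fell by 0.60 (adjusted p = 1.59e-04). Hexokinase HK1 rose by 0.31 (adjusted p = 0.00313) and the glutamine synthetase GLUL by 0.41 (adjusted p = 0.0199). The hexokinase HK2 was brighter, at 3.37 in shCtrl against 0.87 for HK1. It differed by 0.06 (adjusted p = 0.450) on its brighter probe and by 0.50 (adjusted p = 0.0244) on the other.

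Among the 15 genes of amino sugar interconversion, salvage and breakdown, 4 were lower, 6 higher and 5 did not pass. The phosphoglucomutase PGM1 fell by 0.23 (adjusted p = 0.0124). UGP2, which makes UDP-glucose, rose by 0.26 (adjusted p = 0.00825) and AMDHD2, which deacetylates GlcNAc phosphate, rose by 0.26 (adjusted p = 0.0139).

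Of the 23 genes that transport or use UDP-GlcNAc or make sialic acid, 21 were tested, 5 were lower, 4 higher and 12 did not pass. SLC35B4, a Golgi nucleotide sugar transporter, fell by 1.26 (adjusted p = 6.99e-06), MGAT2, a branching N-glycan transferase, fell by 0.47 (adjusted p = 3.65e-04) and NANS, sialic acid synthase, fell by 0.43 (adjusted p = 0.0023). MGAT4A, another branching transferase, rose by 0.39 (adjusted p = 5.04e-04). HAS3, a hyaluronan synthase, rose by 0.92 (adjusted p = 1.69e-04) on its brighter probe and gave -0.24 on the other (adjusted p = 0.434).

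**Figure D4:**
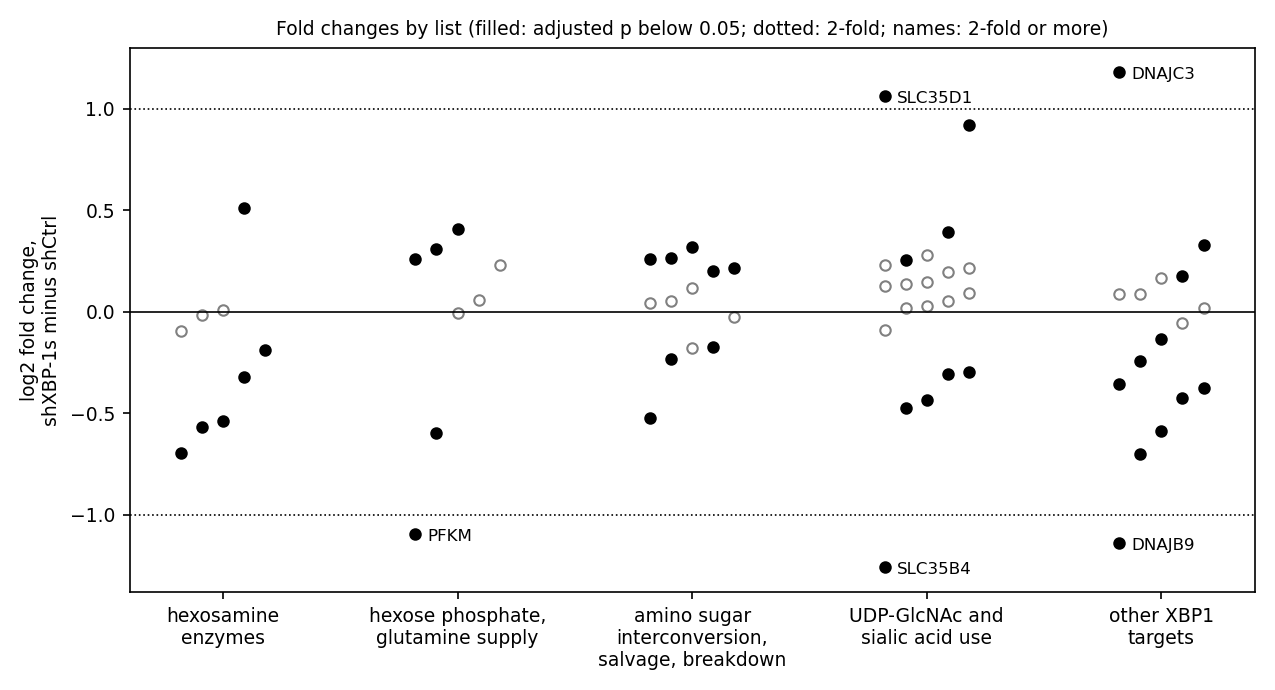
Differences in log2 signal, shXBP-1s minus shCtrl, for the genes of each list that are reported here, 1 point per gene by its brightest tested probe (the pathway members as 9 probes), filled where the adjusted p was below 0.05, with dotted lines at 2-fold and names for genes past them. The pathway members all lie inside the 2-fold lines. PFKM at -1.10, SLC35B4 at -1.26 and DNAJB9 at -1.14 lie below them, and DNAJC3 at 1.18 and SLC35D1 at 1.06 lie above.

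Beside these, 16 other genes known as XBP1 targets in the endoplasmic reticulum were taken for comparison, and 8 were lower, 3 higher and 5 did not pass, with a median difference of -0.10. These are 50% and 18.8% of the list, beside 27.5% lower and 18.9% higher of all tested genes, whose median was -0.04. The co-chaperone DNAJB9 fell by 1.14 (adjusted p = 2.31e-06). SERP1, a translocon-associated protein, differed by -0.70 (adjusted p = 1.06e-05) and SEC24D, a COPII coat subunit, by -0.42 (adjusted p = 1.08e-04). The co-chaperone DNAJC3 rose by 1.18 (adjusted p = 6.85e-06) and the disulfide isomerase PDIA4 by 0.33 (adjusted p = 8.56e-04).

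Other features of the cells moved with the same groups, and their part in the results above was not tested. All 6 samples are CAL-27 cells, and the lists are named for the cell types their genes mark, not for cells known to be present. In bulk RNA, a change in the share of cells with a transcript and a change in RNA per cell cannot be told apart. All 8 squamous epithelial markers were above background on all 6 arrays. Their summed level, on the same log2 scale, was 6.67 to 6.76 in shCtrl and 7.12 to 7.35 in shXBP-1s. The brightest markers weigh most in this sum. Of the 8, 6 were higher, beside 18.9% of all tested genes. A rise of 2-fold or more was seen for 4 of them, beside 387 of all 16821 tested genes. The median difference of the 8 was 1.18, beside -0.04 over all tested genes. Fibroblast markers summed to -0.14 to -0.004 in shCtrl and -1.16 to -1.02 in shXBP-1s. Of the 3 tested, 2 were lower, beside 27.5% of all tested genes, and COL3A1 was not above background on any array. The 4 leukocyte markers summed to -0.53 to -0.42 against -0.38 to -0.21, and the 3 endothelial markers to -2.34 to -1.95 against -2.03 to -1.94.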

How the data were processed

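Total RNA from 6 samples was labelled with Cy3 and hybridised to 1-colour Agilent arrays. The labels describe a NimbleGen labelling procedure, while the scanner output is Agilent's. Per the file headers, the authors deposited Feature Extraction 11.0.1.1 output, in which each spot's intensity is background-subtracted and not normalized between arrays. A second deposited table gives log2 values with equal quartiles on all arrays, used here only as an alternative, and the submitters' processing notes name RMA without a role.

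From the intensity, log2 was taken, the 75th percentile of each array subtracted, outlier-flagged spots left out (230 to 377 per array) and spots of a probe averaged. A probe was tested where either group had it well above background on each of its 3 arrays, which held for 27624 of 34127 probes. The test was limma 3.58.1 in R 4.3.3 (eBayes with trend), 2-sided, with Benjamini-Hochberg adjustment over these probes and a threshold of 0.05. Exact permutation tests over samples were 2-sided. The number of arrays limits the precision. Symbols came from RefSeq accessions (25771 probes). The array annotation names another genome build than the promoter sequences, so the only coordinates given are those of the promoter stretches.

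Groups and replicate numbers came from the sample titles. No pairing by replicate number was seen. Deviations of same-numbered samples correlated at -0.0158, 0.117 and -0.116, and those of differently numbered samples at -0.125 to 0.117. A gene in a list was represented by its brightest tested probe. Named are all members, XBP1, up to 5 called genes of each list with the smallest p, and the 5 nearest to the member with the smallest p (HAS3 on both of its probes). PFKP, PFKL and HK2, which did not pass on their brightest probes, are named beside PFKM and HK1, with HK2 on both of its probes. Some listed genes are counted in their lists but not reported here by name or drawn. Members and lists were chosen with earlier results of these data known. The test was checked on simulated data with planted differences of more than 2-fold. No pathway probe differed by that much, so the check does not cover calls of their size. Alternatives were normexp, quantile and median scaling, the deposited log2 values, other filters, the methods' t-test, the replicate number or slide as a block, and leaving out each array.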

Additional observations from a re-analysis of the deposited data

How the results depend on the processing

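Of the 9 hexosamine pathway probes, the number passing the test ranged from 4 (normexp) to 6 under the alternatives run, 6 as reported. Of all 27624 probes tested, 11516 passed as reported and 4476 under normexp. The number of pathway probes at 2-fold or more was 0 under each. Among the 45 listed neighbour genes, 25 passed as reported, 13 under normexp and 15 under the methods' t-test after adjustment. Of the 25, 14 were higher and 11 lower. Lower genes outnumbered higher ones under the adjusted t-test (9 and 6) and with the slide as a block (9 and 8), and under no other alternative. Of all tested probes, 9209 passed that t-test after adjustment. The number of probes at the smallest exact p was 7 as reported and 4 under normexp. GFPT1 probe A_23_P345887, GNPNAT1, UAP1 and NAGK kept their direction and their call under every alternative, with ranges of -0.81 to -0.57, -0.55 to -0.47, -0.62 to -0.43 and 0.46 to 0.62. OGT lost its call only under normexp. Normexp moved the median of all probes to -0.42, and for the 6 called probes the values relative to that median stand beside the results above. OGA lost its call under 6 alternatives, listed with its values above, and the mean over both probes of GFPT1 passed where probe A_33_P3243153 alone did not.

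The probes that did not pass changed sign. GFPT1 probe A_33_P3243153 was 0.0652 under normexp and 0.0237 with normexp and quantile normalization. GFPT2 was -0.00198 and -0.0157 under these, and between -0.0523 and 0.0428 when 1 array was left out. PGM3 was 0.186 under normexp, 0.138 with normexp and quantile, 0.0486 with quantile alone, 0.0443 with the deposited log2 values, and between -0.0705 and 0.0484 when 1 array was left out. The causes were not tested.

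In the check of the pairing, same-numbered samples did not deviate together more than others, and whether they share more than a number is not known. With the replicate number as a block, 6 pathway probes, 25 neighbour genes and XBP1 at -2.39 (adjusted p = 4.94e-06) were called, and no call of a pathway probe changed. With 3 arrays per group, differences as small as that of OGA lie near what the spread allows to be called. All 9 probes were well above background on all 6 arrays.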
